A study of Homo sapiens with 9 samples.

Results

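The genes for the proteins of the cytosolic ribosome were followed in VCaP cells after silencing of CDO1, the enzyme that oxidizes cysteine to cysteine sulfinic acid. Members were chosen by name, as protein-coding genes called RPL or RPS with a number and an optional letter or L suffix, together with RPSA, RPLP0, RPLP1 and RPLP2 and without the RPS6K kinases. This gave 85 of the 58735 genes in the count table, 53 for the large (60S) and 32 for the small (40S) subunit. Of the 85, 82 passed the filter on low counts and were tested among 15555 genes.

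VCaP is an established prostate cancer cell line, kept here in medium with 10% serum and 2 nM of the androgen DHT in all groups. The cells, labelled wild type, received siRNA A or C against CDO1 (siCDO1A and siCDO1C) or a control siRNA (siCtrl) by transfection, and 3 libraries of each group, 1 for each of 3 labelled batches, were made from poly(A) RNA. A knockdown by transfected siRNA is transient and partial, and the comparison of A with C holds what differs between these reagents besides CDO1.

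A ribosome joins a large and a small subunit, each built from ribosomal RNA and a set of small basic proteins that are nearly all present in a single copy. Their genes are among the most highly expressed of a growing cell and are transcribed as a coordinated set. Most of their mRNAs start with a C followed by a run of pyrimidines, the 5′ terminal oligopyrimidine (TOP) motif, through which mTOR signalling and LARP1 control their translation and stability.

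The TOP motif is shown first, because it is the sequence most members share and because the name rule did not use it. Of the 85 members, 68 had an entry in the RefSeq promoter table of GRCh38.p14. Among the remaining 17 were RPL23, RPL23A, RPL30, RPL37, RPL39L, RPL3L, RPL5, RPL7, RPL8, RPS15A, RPS2 and RPS20. The motif was read on the transcribed strand at the annotated start alone, as a C at the start and at least 4 more bases that are each C or T. It was found at a start of 47 of the 68 members (69.1%), against 1404 of all 27305 gene symbols in the table (5.14%). The windows below hold 30 bases, the first 15 before the start, on the strand of the gene. The pyrimidine run is in capitals, and a window without capitals has no match at the annotated start.
RPL28, chr19:55385917-55385946, plus strand: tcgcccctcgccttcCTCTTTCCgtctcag
RPS19, chr19:41860240-41860269, plus strand: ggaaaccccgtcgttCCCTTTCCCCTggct
RPS24, chr10:78033848-78033877, plus strand: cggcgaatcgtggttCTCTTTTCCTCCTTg
RPLP0, chr12:120201097-120201126, minus strand: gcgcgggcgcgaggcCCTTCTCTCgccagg
RPS6, chr9:19380222-19380251, minus strand: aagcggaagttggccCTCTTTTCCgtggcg
RPS28, chr19:8321481-8321510, plus strand: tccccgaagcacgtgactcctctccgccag
RPS27, chr1:153990747-153990776, plus strand: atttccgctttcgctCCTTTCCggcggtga
RPS27L, chr15:63157463-63157492, minus strand: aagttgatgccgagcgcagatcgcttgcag
RPL36A, chrX:101390996-101391025, plus strand: tttgcctcgcggtttCTTTCTTTCCgcgcc
RPL36AL, chr14:49620612-49620641, minus strand: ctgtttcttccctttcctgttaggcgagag
RPL28, RPS19, RPS24 and RPS28 are the members whose calls are described first below, RPLP0 was the reference gene of the RT-qPCR in the study, and RPS6 is the substrate that names the S6 kinases. The last 4 windows set RPS27 and RPL36A, which have a match, beside their paralogues RPS27L and RPL36AL, which do not. In RPS28 and RPL36AL a pyrimidine run lies within a few bases of the annotated start, so that an absent match says only that these letters are not at that position.

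CDO1 itself had 13.6 to 14.2 CPM (counts scaled to the TMM-normalized size of the library) in siCtrl, 2.05 to 3.28 in siCDO1A and 1.09 to 2.81 in siCDO1C (n = 3 each). The groups did not overlap (two-sided exact permutation p = 0.1 for each siRNA, the smallest that 3 against 3 libraries allow). Libraries held 12061295 to 16073698 counts, and 3 counts correspond to 0.187 to 0.249 CPM. All 11 markers of prostate epithelium on the list were expressed, while of 10 markers of other cell types ALB stood out at 153 to 248 CPM. The second siCDO1C library stood apart from the other siCDO1C libraries in all genes, with a chi-square per degree of freedom of 13.2 and 13.1 against 2.48 to 6.18 within siCtrl and siCDO1A and 2.65 between siCDO1C 1 and 3. The labels call the libraries biological replicates, and what was separate between them is not stated further.

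The share of all counts taken by the 85 genes differed more between the libraries of an siRNA group than within siCtrl. It was 7.44%, 7.55% and 7.70% in siCtrl 1, 2 and 3 (7.56% ± 0.132, SD, n = 3). In siCDO1A 1, 2 and 3 it was 8.38%, 8.44% and 7.69% (8.17% ± 0.416, SD, n = 3). In siCDO1C 1, 2 and 3 it was 7.52%, 8.73% and 7.25% (7.83% ± 0.787, SD, n = 3). The third siCDO1A library lay within the siCtrl range, and in siCDO1C only the second library lay above it. The mean share was 0.606 percentage points higher in siCDO1A than in siCtrl (two-sided exact permutation p = 0.2) and 0.271 points higher in siCDO1C (p = 0.9, same permutation test), in a design whose smallest possible p is 0.1. The 95% Wilson interval of a single share was at most 0.031 points wide and covers counting error only. Both subunits moved together. The large subunit took 4.88% ± 0.0819, 5.24% ± 0.247 and 5.03% ± 0.48 of counts in siCtrl, siCDO1A and siCDO1C, and the small subunit took 2.68% ± 0.0499, 2.93% ± 0.169 and 2.80% ± 0.307 (SD, n = 3 each).

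Another property of the libraries moved in nearly the same order. A smooth trend of each library with gene length was fitted over the genes that are not members, and the fitted log2 deviation of 2 kb genes was set against that of 10 kb genes. The difference was -0.11, -0.06 and 0.03 in siCtrl 1, 2 and 3. It was 0.13, 0.10 and -0.09 in siCDO1A 1, 2 and 3 and -0.09, 0.25 and -0.15 in siCDO1C 1, 2 and 3. The 3 libraries with the highest share of ribosomal protein counts were the 3 in which short genes were highest, and siCDO1C 3 was lowest in both. Mitochondrial genes, in contrast, took similar shares in the groups, 3.34% ± 0.327, 3.41% ± 0.273 and 3.36% ± 0.134 in siCtrl, siCDO1A and siCDO1C (SD, n = 3 each).

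**Figure D1:**
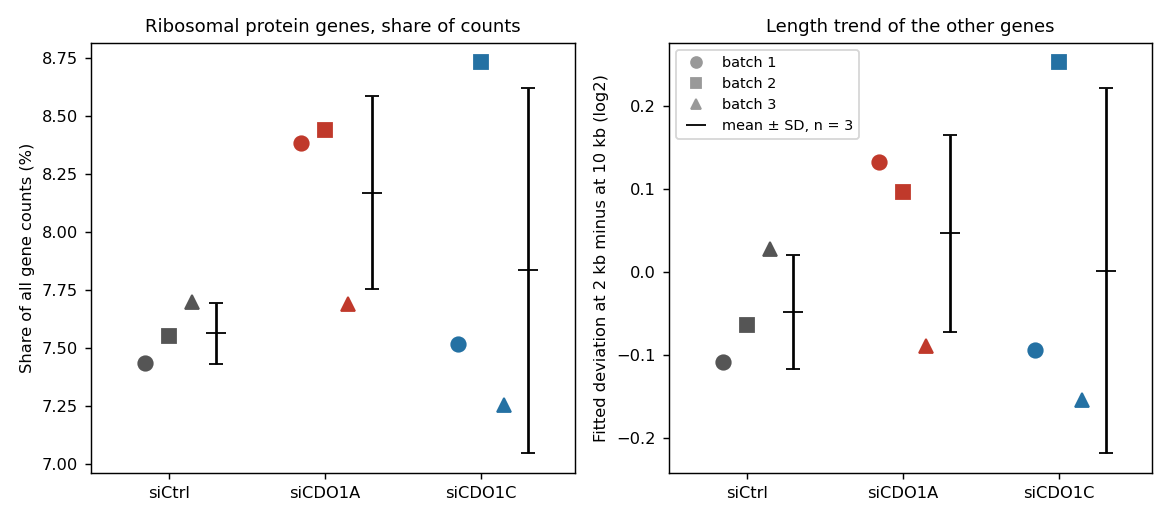
Left, share of all gene counts (%) taken by the 85 ribosomal protein genes in each of the 9 libraries; right, fitted log2 deviation of genes at 2 kb minus that at 10 kb over the other genes. Points are libraries, shapes are batches and bars give the mean ± SD of 3 libraries, and siCDO1C 2 is highest and siCDO1C 3 lowest in both panels.

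Gene by gene, the members deviated as a block within a library. Set against the mean of siCtrl, the median log2 deviation of the 82 tested members was 0.16, 0.18 and 0.04 in siCDO1A 1, 2 and 3. In siCDO1C 1, 2 and 3 it was -0.01, 0.25 and -0.06. In siCDO1A 72, 74 and 47 of the 82 members lay above every siCtrl library. In siCDO1C these were 16, 76 and 6, and 53 members of siCDO1C 3 lay below every siCtrl library. The share over all genes was not taken for these counts, which are a description only. They do not show how far the members differed from other genes. The median deviation of all genes was 0.01 in each of the 6 libraries. A length trend fitted over all genes tested, the members included, was then removed from each library. The median deviations became 0.13, 0.16 and 0.08 in siCDO1A and 0.01, 0.16 and -0.03 in siCDO1C, while those of all genes stayed between 0.00 and 0.02 in these 6 libraries. All 3 siCDO1A libraries thus stayed above the siCtrl mean, and of the siCDO1C libraries the second was still the one that stood out.

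**Figure D2:**
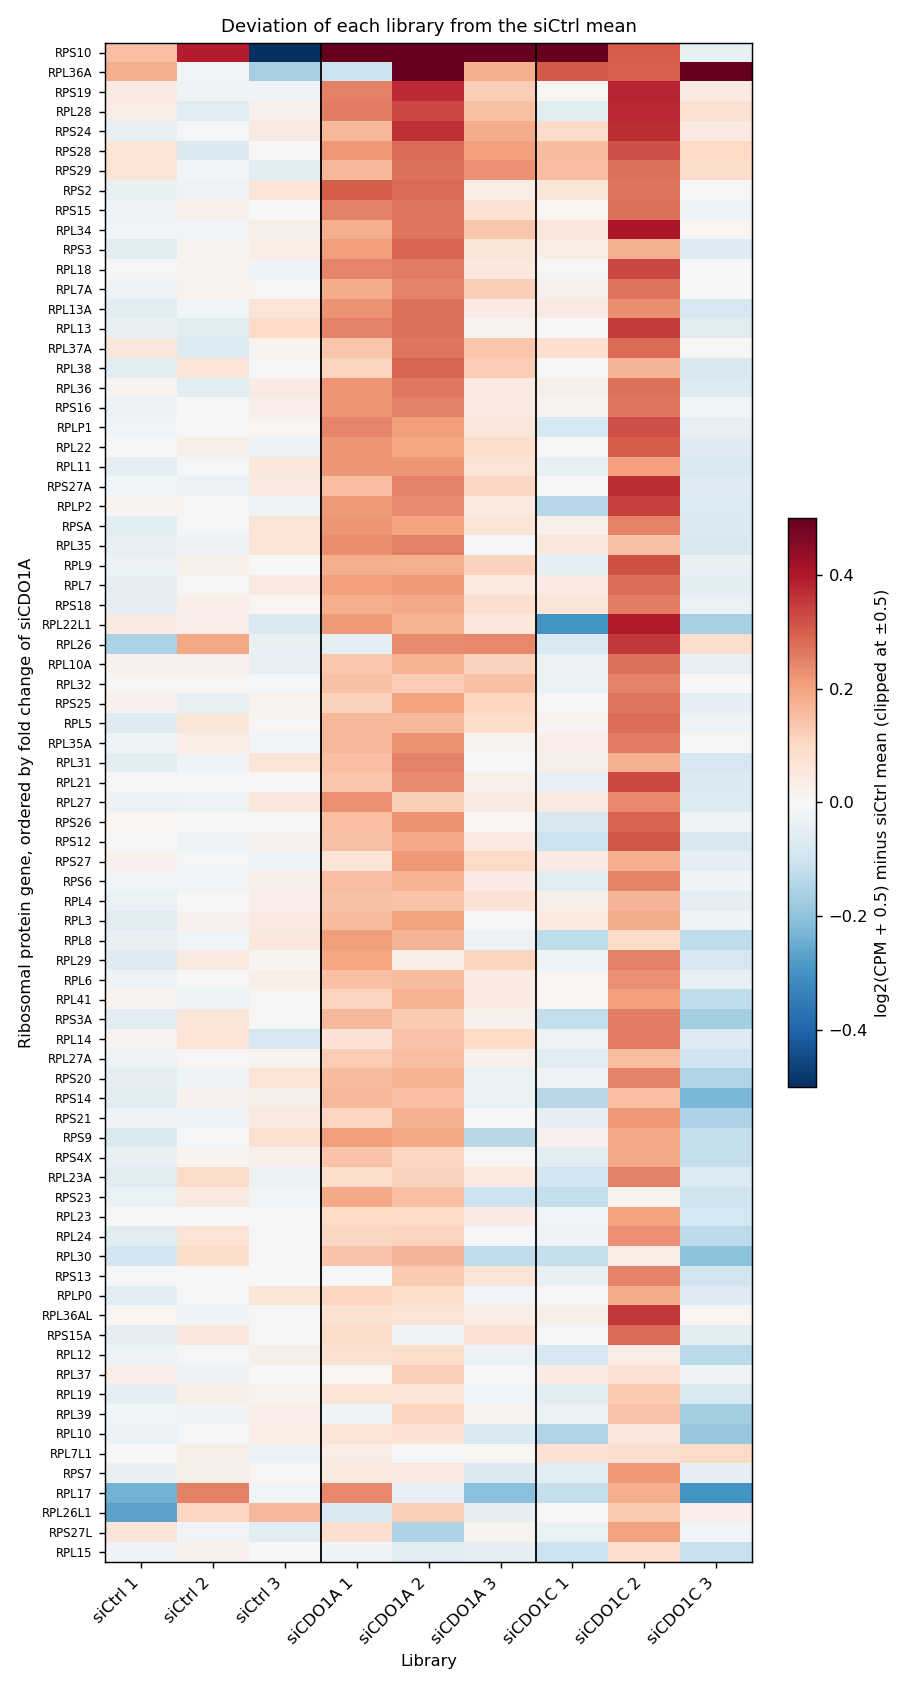
Heat map of 77 of the 82 tested ribosomal protein genes (rows, ordered by the log2 fold change of siCDO1A) in the 9 libraries (columns), with the colour giving the log2 deviation from the siCtrl mean, clipped at ±0.5. The columns siCDO1A 1, siCDO1A 2 and siCDO1C 2 are red for nearly all members, siCDO1A 3 is pale red, and siCDO1C 3 is pale blue for most.

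With siCDO1A, 26 of the 82 members rose and none fell (edgeR quasi-likelihood test, adjusted p of at most 0.05 over all 15555 genes), which is 31.7% of the members, whereas 7.37% of all genes tested were called higher and 7.48% lower (14.8% in either direction). Without adjustment, 51 members reached a p under 0.05 in the higher direction (14.2% of all genes) and 0 in the lower one (13.7%). The median log2 fold change was 0.13 over the members, a rise of 1.09-fold, and 0.01 over all genes, and 78 of 82 members lay above 0, against 51.9% of all genes. The 26 called members rose by 1.1- to 1.19-fold. In 24 of them the siCDO1A and siCtrl libraries did not overlap, and in RPS2 and RPL13A they did. Over all members 43 did not overlap in the higher direction, against 15.2% of all genes, and RPL15 was the 1 member whose siCDO1A libraries all lay below siCtrl (15.4% of all genes). The called members were 15 of 50 tested for the large subunit and 11 of 32 for the small one, with a median log2 fold change of 0.13 in both.

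The batches are pairs by their labels, and with the batch as a replicate block 4 of the 26 members kept an adjusted p of at most 0.05, RPL28, RPS19, RPS24 and RPS28, while 8.73% of all genes were called in either direction. In the fits of all 9 libraries fewer members were called, 1 in edgeR (RPS28) with 8.80% of all genes, and 2 in DESeq2 (RPS28 and RPS29) with 8.87% of all genes. The median log2 fold change with the block was 0.13. Within batches, the median log2 difference between siCDO1A and siCtrl over the members was 0.19 in batch 1, 0.17 in batch 2 and 0.02 in batch 3, with 78, 76 and 55 of 82 members above 0. The share of counts differed by 0.944, 0.883 and -0.00921 percentage points in the same batches. The difference was seen in batches 1 and 2 and was small in batch 3. Each batch holds 1 library per group, so a batch cannot be told apart from its single libraries. Deviations of siCtrl and siCDO1A libraries of the same number were not positively correlated (Pearson's r = -0.196, -0.0872 and -0.368). With siCDO1A 3 left out, 57 members were called (22.2% of all genes in either direction). With siCtrl 3 left out, 18 members were called, every one higher, with 13.1% of all genes called in either direction. With siCtrl 1, siCtrl 2, siCDO1A 1 or siCDO1A 2 left out, these were 6, 4, 8 and 3, every one higher, with 8.67%, 8.31%, 9.12% and 8.59% of all genes called in either direction.

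RPL28, a protein of the large subunit, had 986, 922 and 979 CPM in siCtrl 1, 2 and 3, 1149, 1210 and 1066 in siCDO1A and 923, 1250 and 1014 in siCDO1C. Its log2 fold change was 0.25 (SE 0.0525) with siCDO1A at an adjusted p of 0.00299 (edgeR), and 0.0231 with the replicate block. RPS19, the first gene found mutated in Diamond-Blackfan anaemia, had 1422, 1363 and 1365 CPM in siCtrl, 1647, 1792 and 1508 in siCDO1A and 1392, 1801 and 1427 in siCDO1C. It rose by 0.25 (SE 0.0551) on the log2 scale with siCDO1A (edgeR adjusted p = 0.00345, with the block 0.0173). In both genes the siCDO1A libraries lay above all siCtrl libraries, and the siCDO1C libraries were split, with 1 well above siCtrl and the others in or near its range. RPL28 and RPS19 were called whichever single library of siCtrl or siCDO1A was left out, but not in the fits of all 9 libraries, where the adjusted p was 0.0914 and 0.0780 in edgeR and 0.0849 and 0.0686 in DESeq2.

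RPS24, another small-subunit protein mutated in that anaemia, had 572, 583 and 605 CPM in siCtrl, 658, 755 and 668 in siCDO1A and 627, 758 and 605 in siCDO1C, and rose by 0.24 on the log2 scale with siCDO1A (edgeR adjusted p = 0.00491). RPS28 had 182, 166 and 174 CPM in siCtrl, 202, 212 and 201 in siCDO1A and 194, 217 and 187 in siCDO1C, and rose by 0.24 (SE 0.0558, edgeR adjusted p = 0.00672). RPS29 had 177, 168 and 163 CPM in siCtrl, 190, 205 and 198 in siCDO1A and 189, 205 and 181 in siCDO1C, and rose by 0.22 with siCDO1A (edgeR adjusted p = 0.00984). RPS28 and RPS29 thus differed from the previous genes in that all 6 libraries with an siRNA against CDO1 lay above the 3 siCtrl libraries. RPS28 and RPS29 also had the smallest p of the members with siCDO1C, where the log2 fold changes of 0.19 and 0.17 did not pass the test (edgeR adjusted p = 0.195 and 0.228).

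RPL7A, a large-subunit protein whose introns carry box C/D snoRNAs, had 2170, 2235 and 2217 CPM in siCtrl and 2510, 2620 and 2404 in siCDO1A, a log2 rise of 0.19 (edgeR adjusted p = 0.00949). RPS2 had 1903, 1922 and 2043 CPM in siCtrl and 2412, 2378 and 2005 in siCDO1A, a log2 rise of 0.21 (edgeR adjusted p = 0.0188) that the third library did not share. RPL13A, the member with the most counts, had 4221, 4334 and 4573 CPM in siCtrl and 5114, 5292 and 4504 in siCDO1A, where again the third library lay within siCtrl. The rise of RPL13A was 0.18 (edgeR adjusted p = 0.026). RPL34, RPS15, RPL37A, RPL18, RPS3, RPLP1 and RPL22 rose by 0.17 to 0.20 on the log2 scale. With the replicate block the adjusted p of the 15 named members that lost the call lay between 0.0566 and 0.149 in edgeR, with nearly the same fold changes.

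The acidic stalk, which recruits the elongation factors, showed both outcomes. RPLP1 had 1378, 1393 and 1399 CPM in siCtrl and 1646, 1608 and 1445 in siCDO1A, and RPLP2 had 493, 490 and 482 in siCtrl and 566, 575 and 504 in siCDO1A. Both rose by 0.17 on the log2 scale (edgeR adjusted p = 0.0262 and 0.039). RPLP0, the scaffold of the stalk, had 3515, 3619 and 3794 CPM in siCtrl, 3923, 3873 and 3609 in siCDO1A and 3654, 4140 and 3486 in siCDO1C. Its log2 fold change was 0.06 (SE 0.0477, edgeR adjusted p = 0.439) with siCDO1A and 0.04 (SE 0.0759, edgeR adjusted p = 0.851) with siCDO1C. For the gene to which the RT-qPCR values of the study were related, the groups thus overlapped and neither comparison passed the test.

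RPL5 and RPL11 bind 5S RNA and, when not built into ribosomes, MDM2. RPL11 had 575, 592 and 616 CPM in siCtrl and 691, 693 and 622 in siCDO1A, a log2 rise of 0.17 (edgeR adjusted p = 0.0338). RPL5 had 1084, 1182 and 1138 CPM in siCtrl and 1273, 1268 and 1208 in siCDO1A, with a log2 fold change of 0.14 that did not pass (edgeR adjusted p = 0.0586). The siCDO1A libraries of RPL5 and RPL11 nevertheless lay above all siCtrl libraries. RPS6 had 1614, 1613 and 1661 CPM in siCtrl and 1813, 1840 and 1676 in siCDO1A, with a log2 fold change of 0.12 (edgeR adjusted p = 0.0892). Of the 17 tested members linked to Diamond-Blackfan anaemia, 6 rose with siCDO1A, with a median log2 fold change of 0.15. Beside them, 31.7% of all 82 members and 7.37% of all genes tested were called higher, with a median of 0.13 over the members. Of the 4 X-linked members none was called and the median was 0.06. RPL10 and RPL39, which are X-linked, had log2 fold changes of 0.02 and 0.04 (edgeR adjusted p = 0.806 and 0.733).

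The 5 tested paralogues, which can replace a canonical protein or arose as its copy, ranged from 6.82 CPM (RPL26L1) to 287 CPM (RPL7L1) on average in siCtrl, and 0 of 5 passed the test with either siRNA. Of all genes tested, 14.8% were called in either direction with siCDO1A and 4.77% with siCDO1C. RPL7L1 had 287, 293 and 281 CPM in siCtrl, 294, 286 and 289 in siCDO1A and 302, 303 and 307 in siCDO1C. RPL22L1, the paralogue of RPL22, had 20.7, 20.5 and 19 CPM in siCtrl, 23.3, 22.7 and 20.8 in siCDO1A and 16.2, 26.5 and 17.8 in siCDO1C. RPL36AL had 57.9 to 59.1 CPM in siCtrl and 60.2 to 61.9 in siCDO1A, RPS27L had 32.2 to 34.9 and 29.9 to 35.4, and RPL26L1 had 5.52 to 7.63 and 6.39 to 7.38. The median log2 fold change of the 5 with siCDO1A was 0.02, beside 0.14 for the 8 canonical genes that have a paralogue among the 85 members, tested or not, of which 2, RPL22 and RPL7, rose. The tissue-restricted copies RPL10L, RPL39L and RPL3L did not pass the filter. RPL10L had 0 counts in all 9 libraries, which allows up to 0.187 to 0.249 CPM in each, and RPL39L and RPL3L had at most 0.062 and 0.311 CPM in any library.

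**Figure D3:**
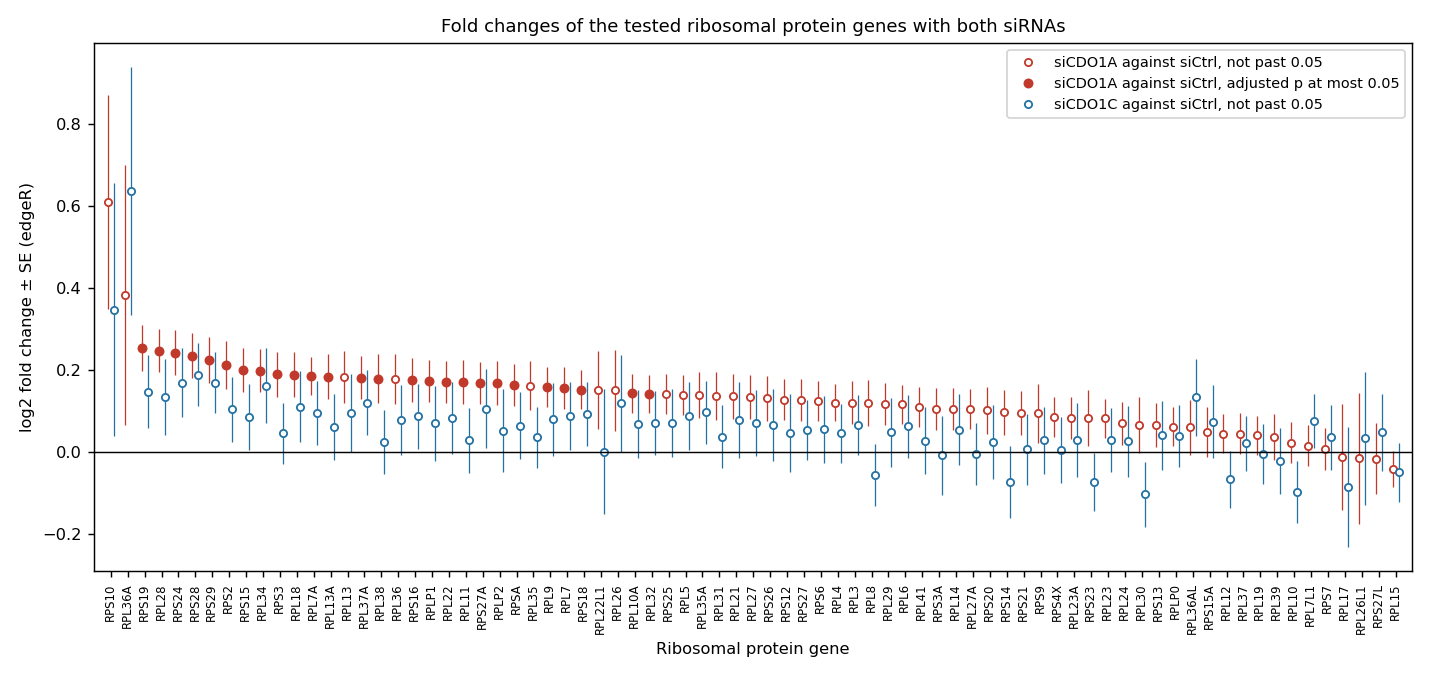
Log2 fold change ± SE (edgeR, 3 libraries per group) of 77 of the 82 tested ribosomal protein genes with siCDO1A (red) and siCDO1C (blue) against siCtrl, ordered by siCDO1A, with filled points for an adjusted p of at most 0.05. The 26 filled points are all of siCDO1A and above 0, and RPS10 and RPL36A, at the left with long bars, have few counts.

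With siCDO1C no member was called in either direction (edgeR, adjusted p of at most 0.05), whereas 4.77% of all genes were, 2.27% higher and 2.50% lower. Before adjustment, 2 members had a p under 0.05 and were higher, 2.44% of the 82 against 9.01% of all genes, and none was lower, against 9.57%. DESeq2 also called 0. The median log2 fold change of the members was 0.06 against 0.00 for all genes, and 69 of 82 lay above 0, against 50.0% of all genes. The standard error was larger than with siCDO1A, with a median of 0.0812 against 0.0526. The siCDO1C libraries lay above all siCtrl libraries in 4 members, RPL36A, RPL7L1, RPS28 and RPS29, against 12.1% of all genes, and below them in 0, against 12.0%. Within batches the median log2 difference was 0.02, 0.23 and -0.08 in batches 1, 2 and 3, with 47, 78 and 14 of 82 members above 0. The direction of the members as a set was thus not the same in the batches, each of which holds 1 library per group. Without siCDO1C 2, 5 members were called lower, RPL10, RPL30, RPL8, RPS14 and RPS3A, which were singled out after their values were seen, and 13.3% of all genes were called.

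The largest log2 fold change with siCDO1C was 0.64 (SE 0.303, edgeR adjusted p = 0.277) for RPL36A, at 1.24 to 1.71 CPM in siCtrl and 1.9 to 3.05 in siCDO1C. RPL30, which feeds back on its own splicing in yeast, had the largest fall, at -0.10 (edgeR adjusted p = 0.544), with 346, 393 and 370 CPM in siCtrl and 339, 378 and 320 in siCDO1C. The 26 members called with siCDO1A had log2 fold changes of 0.02 to 0.19 with siCDO1C. The 2 comparisons share the siCtrl libraries. No member was called with both siRNAs, whereas 1.90% of all genes were called higher and 1.72% lower with both.

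Compared directly, siCDO1C and siCDO1A differed in none of the 82 members (edgeR, 0 at an adjusted p of at most 0.05 and 0 at an unadjusted p under 0.05 in either direction, against 0.444% of all genes, 0.244% higher and 0.199% lower, at the adjusted threshold and 3.83% and 3.82% at the unadjusted one), and DESeq2 called 0 as well. The median log2 difference, siCDO1C minus siCDO1A, was -0.07, with 7 of 82 members above 0, against 48.4% of all genes. Within batches it was -0.16, 0.07 and -0.12. The smallest adjusted p among the members was 0.7. With siCDO1C 2 left out, 8 members were called lower with siCDO1C than with siCDO1A, and 2.87% of all genes were called in either direction. That members passed the test with siCDO1A and not with siCDO1C was therefore not shown to be a difference between the siRNAs.

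Because the libraries differed in how short and long genes were represented, the members were set beside other genes of like length. With siCDO1A the median log2 fold change of other genes went from 0.09 below 1 kb of gene length to -0.06 above 10 kb. The members had a median length of 3055.5 bases, against 4659 over all genes tested. These are deposited gene lengths, which ran from 746 bases (RPL36AL) to 9845 (RPS29) among the tested members. How far they match the transcripts in these cells was not tested. The comparisons by length therefore hold for the deposited length only. Among genes of 2 to 3 kb, 27 members had a median of 0.13 and 2023 other genes 0.04. Among those of 3 to 4 kb, 14 members had 0.17 and 2100 other genes 0.02, and among those of 5 to 7 kb, 11 members had 0.14 and 3074 other genes 0.00. Below 1 kb, where there were 2 members, the medians were both 0.09. With the length trend removed from every library, the members' median was 0.11 against 0.02 for all genes and 29 members were called, all higher, while 17.2% of all genes were called in either direction. With trends in length and GC content removed, 46 members and 21.5% of all genes were called. With the replicate block in the same fits, these were 10 members and 11.9% of all genes after the length trend and 40 members and 20.1% of all genes after both trends. Across the 82 members, Spearman's rho between length and the log2 fold change of siCDO1A was -0.03 as a description, where the points share the same 6 libraries. The part of library composition in the values of the individual members was not tested beyond these corrections.

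**Figure D4:**
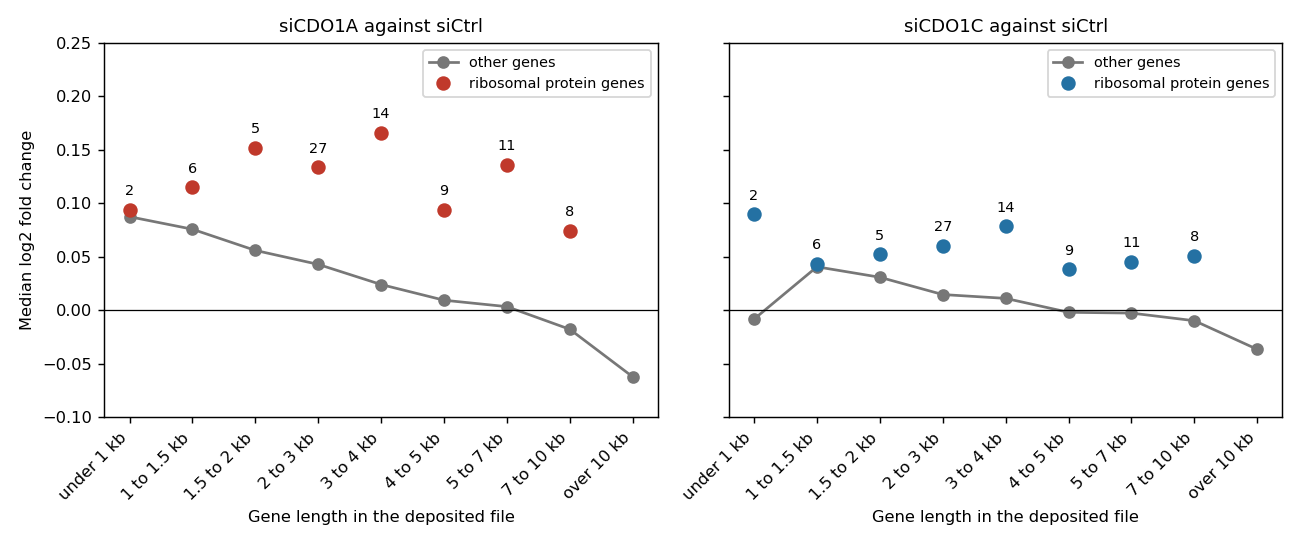
Median log2 fold change against siCtrl in bins of deposited gene length, for the ribosomal protein genes (coloured points, with the number of members above each) and for the other genes tested (grey line). With siCDO1A the grey line falls from 0.09 to -0.06 while the members stay between 0.07 and 0.17; with siCDO1C the members lie between 0.04 and 0.09.

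Members with and without a TOP-like start had similar fold changes, and the difference was not tested. With siCDO1A, 18 of the 47 tested members with a match were called, with a median log2 fold change of 0.15, and 6 of 20 without a match, with a median of 0.12. Over all 82 tested members 31.7% were called, all higher, and 7.37% of all genes were called higher. With siCDO1C the medians were 0.05 and 0.07. RPS28, RPS29 and RPS15, which were called with siCDO1A, are among those without a match.

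Levels were compared between members per kilobase of deposited gene length, so their order depends on that length as well as on the counts. RPS29, with 169 CPM on average in siCtrl and 9845 bases, had 17.2 CPM per kb. RPL41, with 1033 CPM and 1088 bases, had 949. The highest of the large subunit in siCtrl was RPL13A with 1847 ± 75.9 CPM per kb, and the highest of the small subunit was RPS18 with 1134 ± 30.8 (SD, n = 3). RPL7A followed with 985 ± 14.9, and RPS12 and RPL41 with 974 ± 14.8 and 949 ± 14.2, neighbours that differed by less than their SDs added together. At the low end were RPL36A with 0.368 ± 0.0598 CPM per kb and RPS10 with 0.941 ± 0.355, although both proteins belong to the canonical ribosome. Of the 77 tested members that are not paralogues, 9 overlapped another protein-coding gene on the same strand in the annotation, and these had a median of 13.1 CPM per kb against 311 for the other 68. For RPL36A, RPS10 and RPL17 the overlapping gene was a readthrough gene, RPL36A-HNRNPH2, RPS10-NUDT3 or RPL17-C18orf32, which itself had 0 to 3 counts in any library. A read in an exon shared by annotated genes is left out by some counting settings, and the setting is not given in the sources used here. The levels of these 9 members, among them RPL26, RPS15A, RPL22, RPL36 and RPS13, are therefore uncertain. RPS10 had the largest log2 fold change with siCDO1A, 0.61 (SE 0.261, edgeR adjusted p = 0.127), from 2.41, 2.94 and 1.3 CPM in siCtrl to 3.52, 3.21 and 3.23.

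**Figure D5:**
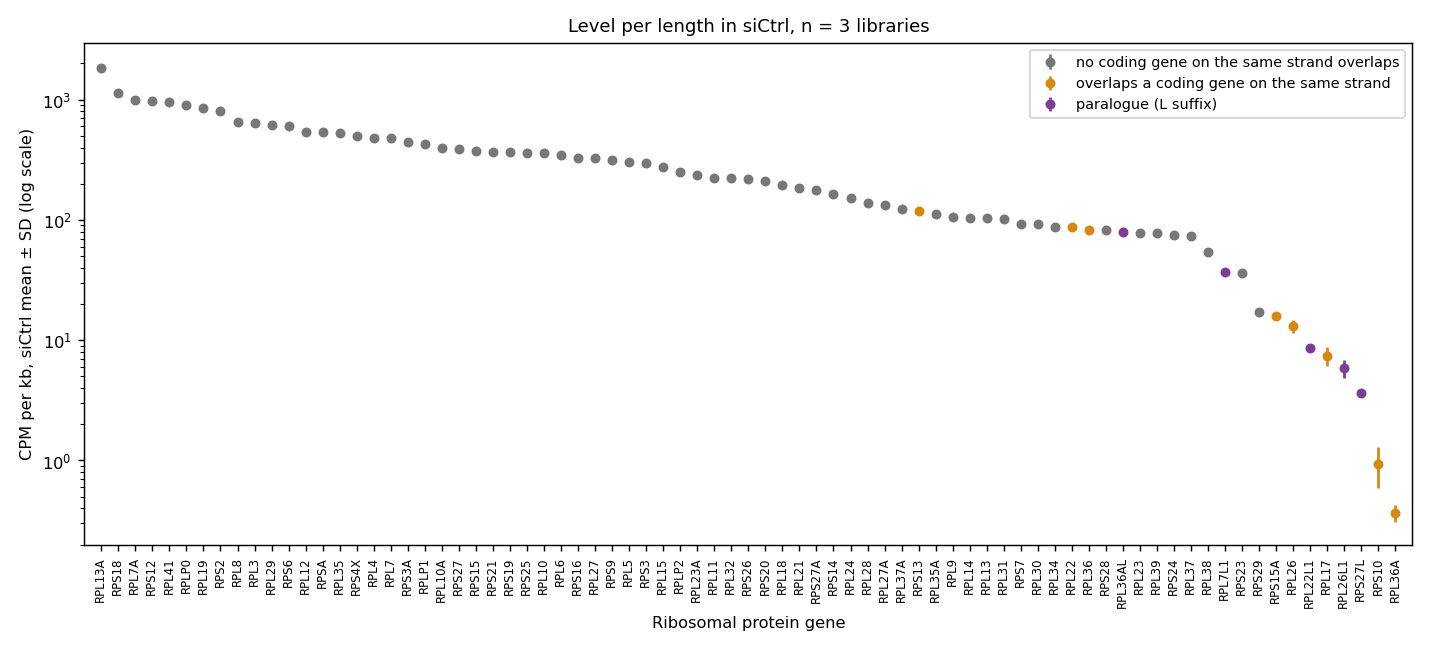
CPM per kilobase of deposited gene length in siCtrl (mean ± SD, n = 3, log scale) of 77 of the 82 tested ribosomal protein genes in descending order. Of the members that overlap a protein-coding gene on the same strand (orange), 5 of those shown lie below every other canonical member, among them RPL36A at 0.368 and RPS10 at 0.941.

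Ribosomal protein genes have many processed pseudogenes, to which reads of the parent can be assigned. The table held 1144 pseudogenes named after 77 of the members, of which 396 had any count and 87 were tested. They took 0.294% to 0.365% of the counts of a library. Their counts were over 10% of the parent's in 11 members, and they were 94.3% in RPL9, 54.5% in RPS28, 25.2% in RPL7 and 24.9% in RPS2. In RPS10 they exceeded the parent, with 166 counts on average against 37.8. With the counts of the named pseudogenes added to each parent, the number of members called with siCDO1A was again 26. Of the 87 pseudogenes, 4 were called higher and 1 lower with siCDO1A, against 7.37% and 7.48% of all genes, with a median log2 fold change of 0.11.

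Genes that make the ribosome were compared from lists written from general knowledge. Of 93 tested ribosome biogenesis factors, 15 rose and 0 fell with siCDO1A, against 7.37% of all genes called higher and 7.48% lower, with a median log2 fold change of 0.13. With siCDO1C 1 rose, RPF2, against 2.27% of all genes, with a median of 0.09, and its edgeR adjusted p with the replicate block was 0.0617. NOP56, a core protein of box C/D snoRNPs, rose from 221, 234 and 224 CPM in siCtrl to 292, 279 and 277 in siCDO1A, a log2 fold change of 0.32 (edgeR adjusted p = 0.000254). BOP1, of the PeBoW complex, NAT10, which acetylates ribosomal RNA, and RRP9, of the U3 snoRNP, rose by 0.34, 0.28 and 0.39. For NOP56 and NAT10 all 3 siCDO1A libraries were close together, whereas the median deviation of the ribosomal proteins was lower in the third library. Some single ribosomal protein genes, such as RPS28 and RPS29, were also close together in siCDO1A. For BOP1 the third library was lower than the first and second, with 187, 191 and 161 CPM in siCDO1A beside 142, 130 and 153 in siCtrl. Of 19 RNA polymerase I genes, 2 rose and 0 fell with siCDO1A, POLR1A and ZNRD1, with a median of 0.13, and of 12 chaperones of ribosomal proteins 1 rose, the importin IPO5. With the replicate block the edgeR adjusted p was 0.0965 for ZNRD1 and 0.0772 for IPO5, and in the fits of all 9 libraries that of POLR1A was 0.299 in edgeR and 0.401 in DESeq2. The call of ZNRD1 was lost in 14 of 22 alternative settings.

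Mitochondrial ribosomal proteins are encoded in the nucleus and form a separate ribosome. Of the 77 tested, 10 rose and 0 fell with siCDO1A (13%, against 7.37% of all genes called higher), with a median log2 fold change of 0.08, among them MRPS6 by 0.41 and MRPS5 by 0.32. With siCDO1C 0 of 77 were called, against 2.27% of all genes higher and 2.50% lower, and the median was 0.06. Before adjustment (edgeR), 12 of the 77 had a p under 0.05 and were higher, against 9.01% of all genes, and 0 were lower, against 9.57%. Of 4 ribosomal proteins outside the name rule, RACK1 rose with siCDO1A by 0.14 (edgeR adjusted p = 0.0459, with the block 0.154, and lost in 12 of 22 alternative settings) and RPS4Y1 rose as well, whereas FAU, which is fused to a ubiquitin-like sequence, had a log2 fold change of 0.10 and did not pass. Of 20 other genes with TOP mRNAs, 5 rose and 0 fell with siCDO1A, with a median of 0.07. Of 12 noncoding hosts of snoRNAs, 3 rose with siCDO1A, SNHG3, SNHG1 and SNHG15. SNHG3 had 65.4, 69.5 and 67.4 CPM in siCtrl, 124, 128 and 127 in siCDO1A and 94.2, 110 and 93.6 in siCDO1C, and it rose with both siRNAs, by 0.91 and 0.55 on the log2 scale (edgeR adjusted p = 3.01e-09 and 0.00109).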

How the data were processed

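RNA of VCaP cells was measured in 9 libraries. The authors had directional poly(A) libraries sequenced from both ends and reads counted per gene, and the counts were deposited as whole numbers without normalization. The submitters' processing notes name HISAT2 2.0.5 and hg38. Strand and multiple-mapping settings are not given in the sources used here. The deposited count table has 3 further columns that match no sample and were used in no step. Coordinates of all 85 members overlapped those of GRCh38 in RefSeq.

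Genes were kept by filterByExpr of edgeR 4.0.16 (minimum count 10, R 4.3.3), counts were normalized with TMM, and each comparison used its 6 libraries in the quasi-likelihood test with Benjamini-Hochberg adjustment over 15555 genes. Batch and replicate numbers coincide in the labels, so libraries of the same number were taken as pairs. As a check, deviations from the group means were correlated across 11332 genes of at least 5 CPM, and for batches 1, 2 and 3 Pearson's r between siCtrl and siCDO1A was -0.196, -0.0872 and -0.368, between siCtrl and siCDO1C 0.0504, -0.00926 and -0.271 and between siCDO1A and siCDO1C -0.131, 0.123 and 0.37. The main fit has no block. Length and GC trends were natural splines (5 degrees of freedom) per library, with GC content known for 15442 genes (99.3%). The trends that were removed were fitted over all genes tested, the members included. Only the difference between 2 kb and 10 kb came from a fit without the members. DESeq2 1.42.0, other scalings and filters and leaving out each library were alternatives, and the test was checked on simulated counts.

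The members and all lists were chosen with earlier results of these data known. Genes named are RPLP0, paralogues and parents, the 15 called members of smallest p (or 5 where none was called), extremes of level and fold change, RPL5, RPL11, RPLP1, RPLP2, RPS6 and up to 4 called genes of each pathway list. RPL8, RPS14, RPS3A, RPS12, RPL41, RPL9, RPL17, RPS15A, RPL36, RPS13, FAU, LARP1 and CDKN1A were named after their values were seen. A few genes are not reported here by name and are not drawn in the plots, but stay in all counts, shares and medians.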

Additional observations from a re-analysis of the deposited data

How the results depend on the processing

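The 26 members called with siCDO1A, all higher, stood beside 14.8% of all genes called in either direction. They became 1 in a single edgeR fit of all 9 libraries (RPS28, beside 8.80% of all genes) and 2 with DESeq2 on all 9 libraries (RPS28 and RPS29, beside 8.87%). With library totals in place of TMM they were 15 (14.7% of all genes), and with the replicate block 4 (8.73%). With the length trend removed and the replicate block they were 10 (11.9%). With trends in length and GC content removed they were 46 (21.5%), and with the block as well 40 (20.1%). At an adjusted p of 0.01 they were 6, and the share of all genes was not taken there. The cause of these differences was not tested. Leaving out 1 library gave 3 to 57, beside 8.31% to 22.2% of all genes, with fewer samples in each fit. The count was 24 to 30 with DESeq2 on the 6 libraries, RLE, TMM without the members, other filters, protein-coding genes only, the length trend removed or pseudogenes added to their parents. Over all genes 7.45% to 17.2% were called in these settings. All calls were higher in each of these settings, and the members' median stayed between 0.10 and 0.17. The last settings, both trends with the block and the added pseudogenes, were chosen after seeing the data. With siCDO1C the count was 0 in all settings except 0 to 5 with 1 library left out, where the median was between -0.03 and 0.11 and below 0 without siCDO1C 2. Between the siRNAs it was 0, or 0 to 8 with 1 library left out. The difference in the share of counts was between 0.472 and 0.845 points with siCDO1A and between -0.177 and 0.561 with siCDO1C when 1 library was left out. Apart from the calls named beside the results, the replicate block changed no call with siCDO1C or between the siRNAs among the members.

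Some log2 fold changes that had not passed the test changed sign. With siCDO1A, RPL7L1 was at -0.00185 with library totals and RPL36AL at -0.000518 with the length trend removed and -0.000411 with the block as well. RPS27L was at 0.0325 and 0.0324 with the length trend removed without and with the block, and at 0.0579 and 0.0586 with both trends removed. With siCDO1C, RPL22L1 was at -0.0257 with the replicate block, -0.0298 and -0.0473 with the length trend removed without and with it, and -0.0305 and -0.0427 with both trends removed, and RPS10 was at -0.0448 with pseudogenes added. When 1 library was left out, the range with siCDO1A was -0.00245 to 0.0294 for RPL7L1, -0.142 to 0.0765 for RPL26L1, -0.0663 to 0.0506 for RPS27L, -0.00211 to 0.0703 for RPL10 and -0.0036 to 0.0631 for RPL39. With siCDO1C it was -0.0326 to 0.0887 for RPLP0, -0.0667 to 0.153 for RPLP1, -0.107 to 0.151 for RPLP2, -0.0100 to 0.144 for RPL5, -0.0602 to 0.0796 for RPL11 and -0.0426 to 0.121 for RPS6. It was -0.242 to 0.148 for RPL22L1, -0.0864 to 0.126 for RPL26L1, -0.0284 to 0.0996 for RPS27L, -0.00989 to 0.157 for RPL7, -0.0319 to 0.154 for RPL22 and -0.0043 to 0.224 for RPL26. It was -0.103 to 0.0493 for RPL39, -0.00551 to 0.104 for RPS27 and -0.0237 to 0.131 for RPL13A. In most of these the sign changed without siCDO1C 2.

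Depth limited RPS10, RPL36A and RPL26L1, which had few counts, and fold changes near 0.1 on the log2 scale were close to the standard errors of siCDO1C.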

Other observations

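Of 37 tested translation initiation factors, 5 rose and 3 fell with siCDO1A, and 0 rose and 2 fell with siCDO1C. Of all genes tested, 7.37% were called higher and 7.48% lower with siCDO1A, and 2.27% higher and 2.50% lower with siCDO1C. EIF5B, which joins the subunits, rose with siCDO1A by 0.35 on the log2 scale, and EIF3F and EIF2S3 by 0.25 and 0.24. EIF5, which triggers GTP hydrolysis on the initiation complex, fell with both siRNAs, from 268, 273 and 248 CPM in siCtrl to 212, 212 and 224 in siCDO1A and 206, 229 and 212 in siCDO1C, with log2 fold changes of -0.28 and -0.29 (edgeR adjusted p = 0.00151 and 0.0328). The call of EIF5 with siCDO1C was lost with the replicate block, at an edgeR adjusted p of 0.0557. EIF2S1 fell with siCDO1A (-0.28), and EIF4G2, a translation factor that does not bind the cap-binding protein, fell with both siRNAs (-0.18 and -0.36). Of 12 elongation and termination factors, EEF1D and ETF1 rose with siCDO1A, by 0.27 and 0.21, and none was called with siCDO1C. With the replicate block the edgeR adjusted p of ETF1 was 0.0640. Of 20 genes of ribosome quality control 3 rose with siCDO1A, and ZNF598, which marks collided ribosomes, rose by 0.33.

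The 28 tested genes of mTOR signalling and TOP mRNA control were divided, with 4 higher and 4 lower with siCDO1A and 0 higher and 3 lower with siCDO1C. The shares over all genes are those given above beside the initiation factors, here and for the p53 list below. EIF4EBP1 and AKT1S1, inhibitors in this pathway, rose with siCDO1A by 0.29 and 0.34, and MTOR fell by 0.21 on the log2 scale. The call of MTOR was lost in 9 of 22 alternative settings, the replicate block among them (edgeR adjusted p = 0.0886), and that of EIF4EBP1 in 6, with an adjusted p of up to 0.0806. EIF4EBP2, of the same list, was called lower with siCDO1C. Its log2 fold change lay between -0.363 and -0.229 over the main fit and the alternatives, and the call was lost in 6 of 22 settings. LARP1 had log2 fold changes of -0.01 and -0.03 with siCDO1A and siCDO1C (edgeR adjusted p = 0.894 and 0.905). The kinase genes RPS6KA3 and RPS6KA2 were lower with both siRNAs, at -0.32 and -0.35 with siCDO1A and at -0.36 and -0.58 with siCDO1C, where the calls were lost in 5 and 3 of 22 settings. Of 20 genes of the MDM2 and p53 list, 5 rose and 3 fell with siCDO1A and 2 rose and 2 fell with siCDO1C. SESN1 rose with both siRNAs, by 0.33 and 0.34, as did BTG2, by 0.28 and 0.38, and FAS fell with both (-0.35 and -0.30), although its edgeR adjusted p with siCDO1C was 0.0763 with the replicate block. CDKN1A fell with siCDO1A (-0.29, edgeR adjusted p = 0.0231) and was at -0.25 with siCDO1C, which did not pass (edgeR adjusted p = 0.141). SESN2 was called lower with siCDO1C, at -0.669 to -0.525 over the main fit and the alternatives, a call lost in 6 of 22 settings. PLK2 fell with siCDO1A (-0.60) and had a log2 fold change of 0.06 with siCDO1C. It was the 1 gene of this list called between the siRNAs.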
